A study of Mus musculus with 8 samples.

Results

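Oxidative phosphorylation subunits are the nuclear-encoded proteins of the 4 respiratory chain complexes and of the ATP synthase, complex V. Members were chosen by gene symbol alone, with 1 probe set per gene, the brightest over all arrays among those that name a single gene. The rule found 77 genes of 18194 with such a probe set. They comprised 35 genes of complex I, 4 of complex II, 8 of complex III, 10 of complex IV, 17 of complex V, and 3 isoforms of complex IV found mainly in heart and skeletal muscle (Cox6a2, Cox7a1 and Cox8b). Of the 77, 75 had a mean above 5.44, the median of all deposited values on the log2 scale. Ndufb4 and Cox7b2 lay below it. Where a group mean fell under that limit, a difference understates the true one and is read as a lower bound without a fold. Ndufa4 and its relative Ndufa4l2 were grouped with complex I by their symbols, although the Ndufa4 protein is known as a subunit of complex IV.

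Transcript levels were measured on 8 one-colour Affymetrix arrays of mouse cells, from a study of parthenogenetic stem cells as a source of heart tissue. The 2 EB_PSC arrays are embryoid bodies, floating aggregates in which C57BL/6 parthenogenetic stem cells differentiated, cultured for 15 days. The 3 PSC arrays are undifferentiated C57BL/6 parthenogenetic stem cells, taken at day 6 from blastocysts of oocytes activated by strontium without sperm, so both genome copies are maternal. The 3 ESC arrays hold embryonic stem cells of a single line, R1, for which the labels give feeder fibroblasts and leukemia inhibitory factor but no strain. The labels name no gene alteration in any group, no line for PSC and no feeder for PSC. Separate cultures within a group are not stated, so p-values reflect only how far these arrays of a group lie apart, possibly for technical reasons. In PSC against ESC, the origin of the genome, the line, the strain, the sex chromosomes and the culture cannot be told apart. Embryoid bodies hold many cell types, and in such bulk RNA fewer cells of a type and less RNA per cell cannot be told apart.

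Complexes I and II feed electrons from NADH and succinate into the chain, complex III passes them to cytochrome c, and complex IV gives them to oxygen. Complexes I, III and IV pump protons across the inner mitochondrial membrane, and complex V makes ATP as protons flow back through it. In complexes I, III, IV and V, catalytic subunits that hold the redox centres or the ATP-forming sites stand beside many small subunits without them. Heart muscle is among the tissues richest in these complexes, and some complex IV subunits have a muscle isoform beside one used in most tissues. Subunits encoded by mitochondrial DNA are not among the members. The transcription factors NRF1 and GABP are known to bind near the start of many of these genes.

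Promoter windows of 250 bases before the gene start were found for 65 of the 77 members in the RefSeq table of the build GRCm38.p6, and both strands were searched. A gene with several starts has several windows, and a match in any of them was counted. The NRF1 motif, GCGCA and GCGC with any 1 base between them, stood in 11 of 65 members (16.9%), against 4.23% of all 27025 genes with a window. The GABP motif CCGGAAG stood in 12 members (18.5%), against 7.83% of all genes. The YY1 motif ATGGCGG stood in 4 members (6.15%), against 2.58%, and the ERR motif TCAAGGTCA in 1 member (1.54%), against 0.422%. A match is only a match of letters. The genes with a window include genes not measured here, and the windows compared were not matched for base composition. The windows below belong to 3 called members with a match that are described in detail further on, and to Cox7a1, the muscle isoform with the largest difference. Capitals mark the GABP motif in Uqcrh (chr4:116075071-116075320, minus strand) and the NRF1 motif in Ndufa5 (chr6:24527691-24527940, minus strand) and Sdha (chr13:74350241-74350490, minus strand). The window of Cox7a1 (chr7:30183921-30184170, plus strand) held none of the 4 motifs. Ndufa5 has 2 windows, and only the one farther upstream is printed. All are written in the direction of the gene.
Uqcrh: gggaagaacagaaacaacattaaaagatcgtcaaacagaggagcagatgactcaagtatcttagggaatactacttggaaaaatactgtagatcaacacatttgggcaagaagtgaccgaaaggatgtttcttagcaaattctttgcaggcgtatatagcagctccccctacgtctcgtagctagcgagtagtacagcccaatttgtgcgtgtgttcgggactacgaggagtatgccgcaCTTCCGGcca
Ndufa5: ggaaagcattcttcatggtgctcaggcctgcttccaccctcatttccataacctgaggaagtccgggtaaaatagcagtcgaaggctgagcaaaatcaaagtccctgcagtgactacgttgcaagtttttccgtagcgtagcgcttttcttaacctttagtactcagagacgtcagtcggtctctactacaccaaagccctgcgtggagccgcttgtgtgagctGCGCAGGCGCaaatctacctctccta
Sdha: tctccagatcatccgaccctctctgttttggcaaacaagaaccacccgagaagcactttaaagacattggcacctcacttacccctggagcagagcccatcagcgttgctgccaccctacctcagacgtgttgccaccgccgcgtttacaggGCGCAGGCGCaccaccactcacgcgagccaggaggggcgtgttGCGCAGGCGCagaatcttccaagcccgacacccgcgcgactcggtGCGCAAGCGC
Cox7a1: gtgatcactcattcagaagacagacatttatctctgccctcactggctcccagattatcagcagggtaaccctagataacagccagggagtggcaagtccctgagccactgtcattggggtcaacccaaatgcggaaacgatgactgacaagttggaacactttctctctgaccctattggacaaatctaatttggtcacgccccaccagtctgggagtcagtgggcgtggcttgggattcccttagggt

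The identity of the embryoid bodies was checked on marker lists. Of 20 cardiomyocyte markers, 19 were higher in EB_PSC than in PSC, and the median level of the list was 7.94 and 8.46 on the log2 scale in EB_PSC arrays, against 5.32 to 5.46 in PSC arrays. All 10 pluripotency markers were lower, and their median level was 9.26 on both EB_PSC arrays, against 11.54 to 11.58 on PSC arrays. Markers of other cell types were higher as well, with 8 of 10 for fibroblasts, 5 of 8 for visceral endoderm and liver, and 4 of 7 for the erythroid lineage. Of 12 skeletal muscle markers, 2 were higher and 3 lower, and Myod1 and Myog, which define that lineage, were dim in both groups. Between arrays of a group, Pearson's r across probe sets was at least 0.990. The 3' minus 5' difference of the Actb control probe sets was 1.09 to 1.17 on EB_PSC arrays, against 1.04 to 1.54 on PSC arrays.

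In EB_PSC against PSC, the subunits moved in both directions, and complexes I, III, IV and V each held some that rose and some that fell. Of 77 members, 19 were called higher in EB_PSC and 17 lower, and 41 were not called, in a limma fit with adjusted p under 0.05. These are 24.7% and 22.1% of the members, beside 18.8% and 25.2% of all 18194 genes, so both shares were near those of all genes. The median difference of the members was 0.09 in log2 units, and that of all genes was -0.09. With cyclic loess normalization the members split into 27 higher and 14 lower and all genes into 4185 higher and 3566 lower, in place of 3417 and 4578. Among the 65 members with a mean above 10, a limit chosen after values were seen, 16 were higher (24.6%) and 13 lower (20.0%). Of 1833 such genes, 19.9% were higher and 38.5% lower, so in the deposited values a smaller share of these members was lower. Without the second EB_PSC array, 12 members were called higher.

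**Figure D1:**
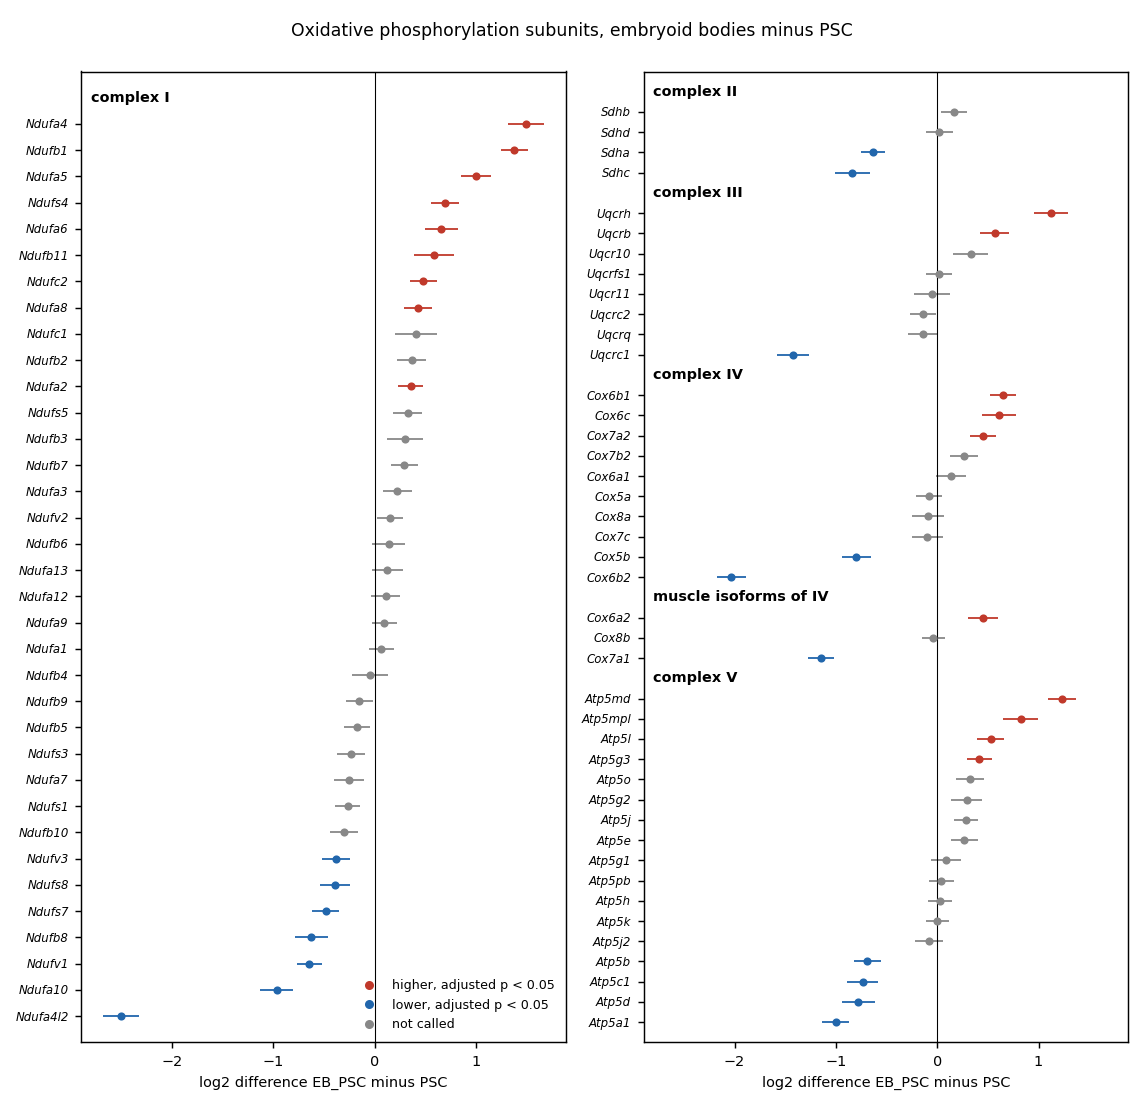
Each point is the log2 difference EB_PSC minus PSC of 1 subunit with its standard error from limma, with complex I on the left and the other complexes on the right, and colours mark calls at adjusted p under 0.05. The 19 higher subunits are spread over complexes I, III, IV and V, and the 17 lower ones over complexes I to V, with 2 lower and none higher in complex II.

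In complex I, which oxidises NADH, 9 of 35 subunits rose and 7 fell, with a median difference of 0.12. These are 25.7% and 20.0% of them, near the 18.8% and 25.2% of all genes. The counts were 5 higher and 5 lower without the first EB_PSC array, 5 and 6 without the second, 12 and 4 with cyclic loess, and 10 and 4 with probe sets averaged. Ndufa4 had log2 values of 10.64 and 10.81 in EB_PSC, against 8.95, 9.24 and 9.51 in PSC. Both EB_PSC arrays lay above every PSC array, and the difference was 1.49 ± 0.18 (SE; limma adjusted p = 1.33e-05), a 2.81-fold rise. Ndufb1, a small accessory subunit of the membrane arm, had 9.00 and 9.04 in EB_PSC, against 7.58, 7.59 and 7.76 in PSC. It rose by 1.38 ± 0.14 (limma adjusted p = 2.16e-06). Ndufa5, an accessory subunit of the peripheral arm whose window with an NRF1 match is printed above, had 11.43 and 11.32 in EB_PSC, against 10.34, 10.37 and 10.42 in PSC, and it rose by 1.00 ± 0.15 (limma adjusted p = 8.88e-05). Ndufs4, an accessory subunit needed for a stable peripheral arm, had 10.96 on both EB_PSC arrays, against 10.19 to 10.32 on PSC arrays. Its rise was 0.69 ± 0.14 (limma adjusted p = 0.00103), and 0.44 when all of its probe sets, including a dim one, were averaged. The other subunits of the complex that rose, Ndufa6, Ndufb11, Ndufc2, Ndufa8 and Ndufa2, did so by 0.36 to 0.65.

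The largest fall of all 77 members was that of Ndufa4l2, a relative of Ndufa4 known to be induced by low oxygen. It had 6.09 and 6.62 in EB_PSC, against 8.82, 9.02 and 8.75 in PSC. No array of the groups overlapped, and the difference was -2.50 ± 0.17 (limma adjusted p = 7.18e-08), a 5.68-fold fall, while Ndufa4 rose. Ndufa10, an accessory subunit, had 9.88 and 9.82 in EB_PSC, against 10.76, 10.86 and 10.84 in PSC, a difference of -0.97 ± 0.16 (limma adjusted p = 0.00024). Its second probe set, near the limit of dim values, went the other way by 0.27, and with both averaged the difference was -0.35 and not called. Ndufv1, the core subunit that binds NADH and flavin, had 10.93 and 10.77 in EB_PSC, against 11.48 to 11.51 in PSC. It fell by 0.65 ± 0.13 (limma adjusted p = 0.0008). Ndufb8 had 10.90 and 10.89 in EB_PSC, against 11.48 to 11.57 in PSC, and differed by -0.63 ± 0.16 (limma adjusted p = 0.00621). Averaged with its other probe set, which is dim, it differed by -0.29 and was not called.

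Core and accessory subunits of complex I were then set side by side, a division made after values were seen and therefore given as counts without a test. Of 6 core subunits, 3 fell and none rose, beside 25.2% and 18.8% of all genes, and with cyclic loess 1 was lower. Beside Ndufv1 these were Ndufs7 (-0.49 ± 0.13) and Ndufs8 (-0.39 ± 0.15, limma adjusted p = 0.0482), which hold iron-sulfur clusters of the peripheral arm. The values of Ndufs8 and Ndufv1 rest on probe sets marked for possible cross-hybridisation. The brightest probe set without that mark gave 0.06 for Ndufs8 and -0.70 for Ndufv1. Of 29 accessory subunits, 9 rose and 4 fell (31.0% and 13.8%). Without either EB_PSC array 5 were higher, and with probe sets averaged 2 were lower. The median difference was -0.33 for the core subunits and 0.22 for the accessory ones. Under the alternatives tried, the median stayed between -0.38 and -0.18 for the core and between 0.19 and 0.37 for the accessory subunits. Ndufs1, the largest core subunit with several iron-sulfur clusters, had 10.36 and 10.31 in EB_PSC, against 10.56 to 10.68 in PSC. Its difference of -0.27 ± 0.12 was not called (limma adjusted p = 0.0997). Of the X-linked members, Ndufb11 had 13.05 and 13.20 in EB_PSC, against 12.28, 12.65 and 12.69 in PSC. It rose by 0.59 ± 0.20 (limma adjusted p = 0.0298), a call lost without either EB_PSC array or without the third PSC array. Ndufa1, also X-linked, differed by 0.06 ± 0.12 and was not called. The smallest difference of the complex was that of Ndufb4, at -0.05 ± 0.18 between dim values.

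Complex II, which also is an enzyme of the citric acid cycle, had 2 of 4 subunits lower and none higher, beside 25.2% and 18.8% of all genes. Sdhc, a membrane anchor subunit, had 9.13 and 9.28 in EB_PSC, against 9.92, 9.95 and 10.26 in PSC. It fell by 0.84 ± 0.17 (limma adjusted p = 0.00142). Sdha, the flavoprotein that oxidises succinate and whose window with 3 NRF1 matches is printed above, had 11.19 and 11.13 in EB_PSC, against 11.74, 11.91 and 11.73 in PSC. Its fall was 0.63 ± 0.12 (limma adjusted p = 0.000797), and the average of all its probe sets, some of them dim, fell by 0.28. Its partner Sdhb, the iron-sulfur subunit, had 11.27 and 11.33 in EB_PSC, against 10.98 to 11.26 in PSC, and its difference of 0.16 ± 0.13 was not called. Sdhd, the other membrane anchor, differed by 0.02 ± 0.13. Within this enzyme, 2 subunits were therefore lower beside 2 for which no difference was called.

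In complex III, 2 of 8 subunits rose and 1 fell (25% and 12.5%), beside 18.8% and 25.2% of all genes. Uqcrh, the acidic hinge protein next to cytochrome c1, had 12.03 and 12.22 in EB_PSC, against 10.69, 11.06 and 11.25 in PSC. It rose by 1.12 ± 0.16 (limma adjusted p = 7.76e-05). Uqcrb, a small subunit at the quinone site, had 14.11 and 14.18 in EB_PSC, against 13.51 to 13.68 in PSC, and rose by 0.57 ± 0.14 (limma adjusted p = 0.00557). The large scaffold subunit Uqcrc1, known as core protein 1, had 9.82 and 9.73 in EB_PSC, against 11.01, 11.29 and 11.31 in PSC. All EB_PSC values lay more than 1 log2 unit below the lowest PSC value, and the difference was -1.43 ± 0.16 (limma adjusted p = 6.59e-06), a 2.69-fold fall. Its partner Uqcrc2 differed by -0.14 ± 0.13 and was not called. The Rieske iron-sulfur protein Uqcrfs1 had overlapping values and differed by 0.02 ± 0.13.

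**Figure D2:**
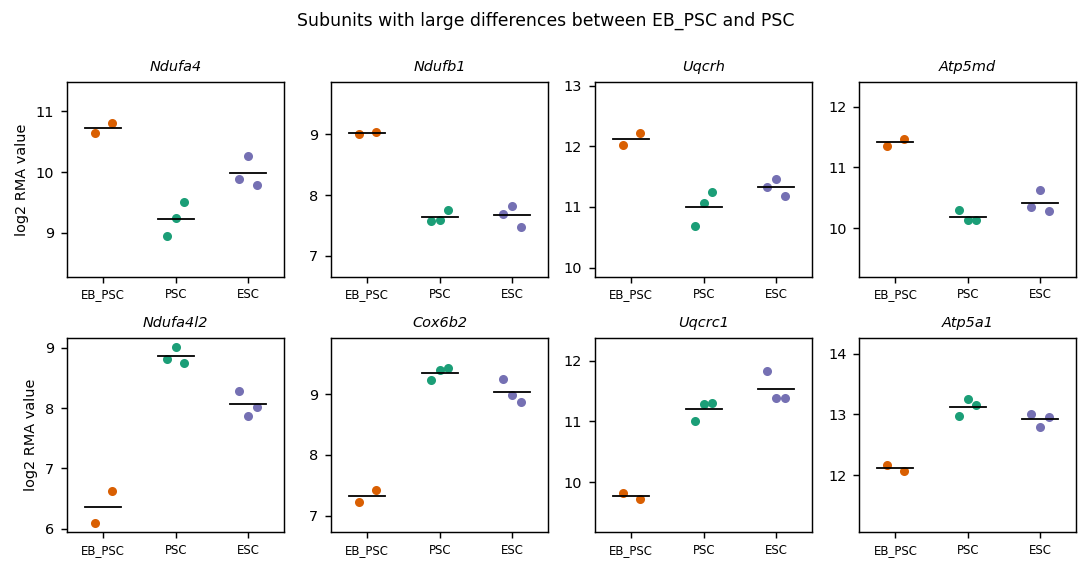
Log2 RMA values of 8 subunits on each array (points), with the group mean (line), in EB_PSC, PSC and ESC. The top row shows 4 subunits that are higher in EB_PSC than in PSC (Ndufa4, Ndufb1, Uqcrh, Atp5md) and the bottom row 4 that are lower (Ndufa4l2, Cox6b2, Uqcrc1, Atp5a1), and in all 8 panels the EB_PSC points lie outside the range of the PSC and ESC points.

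In complex IV, cytochrome c oxidase, 3 of 10 subunits outside the muscle isoforms rose and 2 fell. These are 30% and 20%, beside 18.8% and 25.2% of all genes. Cox6b1, the ubiquitous form of a subunit on the cytochrome c side, had 13.28 and 13.37 in EB_PSC, against 12.65 to 12.70 in PSC. It rose by 0.65 ± 0.13 (limma adjusted p = 0.00091). Its paralog Cox6b2, known as the testis form, had 7.22 and 7.42 in EB_PSC, against 9.23, 9.40 and 9.43 in PSC, and fell by 2.03 ± 0.14 (limma adjusted p = 8.41e-08), which is 4.09-fold. These forms of the same subunit thus moved in opposite directions. Cox6c had 12.83 and 12.81 in EB_PSC, against 11.95, 12.31 and 12.37 in PSC, a rise of 0.61 ± 0.17 (limma adjusted p = 0.00973). Cox5b, a zinc-binding subunit, had 12.34 and 12.29 in EB_PSC, against 13.18, 13.17 and 12.98 in PSC. The fall was 0.80 ± 0.14 (limma adjusted p = 0.000458), but it rests on a probe set marked for possible cross-hybridisation, and the brightest probe set without that mark gave -0.06 and no call. Cox5a, which sits beside it, differed by -0.08 ± 0.13 and was not called.

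Of the 3 muscle isoforms, 1 rose, 1 fell and 1 was not called in EB_PSC, beside 19 of 20 cardiomyocyte markers that rose. Cox6a2 (chromosome 7) had 6.83 and 7.31 in EB_PSC, against 6.66, 6.60 and 6.61 in PSC. It rose by 0.45 ± 0.15 (limma adjusted p = 0.0233), and without the second EB_PSC array the difference was 0.21 and not called. The call was also lost without the second or the third PSC array. The second probe set of Cox6a2, dim and marked for possible cross-hybridisation, differed by 0.76. Cox7a1 (chromosome 7) had 6.98 and 7.04 in EB_PSC, against 8.03, 8.15 and 8.28 in PSC, and 7.48, 7.25 and 7.41 in ESC. It was lower in EB_PSC than on every stem cell array, and the difference from PSC was -1.14 ± 0.13 (limma adjusted p = 8.24e-06), a 2.21-fold fall. Cox8b (chromosome 7) had 5.46 and 5.33 in EB_PSC, against 5.43 to 5.44 in PSC, at the limit of dim values, and no difference was called. Beside these, the 20 cardiomyocyte markers had a median difference of 2.81, with quartiles of 1.17 and 4.24. Actc1, cardiac actin, lay above these quartiles and differed by 6.53 ± 0.15 (limma adjusted p = 2.41e-12).

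Each muscle isoform was also set against its widely expressed partner on the same array. Cox7a2 rose by 0.45 ± 0.13 (limma adjusted p = 0.0108, a call lost without the second EB_PSC array), so that the log2 difference Cox7a1 minus Cox7a2 changed by -1.59 in EB_PSC against PSC. The difference Cox6a2 minus Cox6a1 changed by 0.31, and Cox8b minus Cox8a by 0.06. With all probe sets of a gene averaged, these changes were 0.50 and 0.16. Cox6a1 and Cox8a themselves differed by 0.14 ± 0.15 and -0.09 ± 0.16 and were not called. Exact two-sided permutation tests over the arrays gave p = 0.2 for the Cox7a pair, 0.4 for the Cox6a pair and 1 for the Cox8 pair, and 0.6, 0.6 and 1 after adjustment over the 3 pairs. With 2 arrays against 3, 0.2 is the smallest p possible. Over the 8 arrays, the gene with the profile most like Cox7a1 was Mok (Pearson's r 0.996), followed by Etfb, Atg9b, Cd68 and Apoe. For Cox6a2 it was Ano4 (0.993), followed by Cd53, Ms4a6b, Shh and Opn3, and for Cox8b it was Cst12 (0.970), followed by Barhl2, Morn1, Chd9 and Dusp12. Each of these genes was picked for the highest r among all genes, and Cox8b lay near the limit of dim values on every array. The correlations are descriptions over the same 3 groups.

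**Figure D3:**
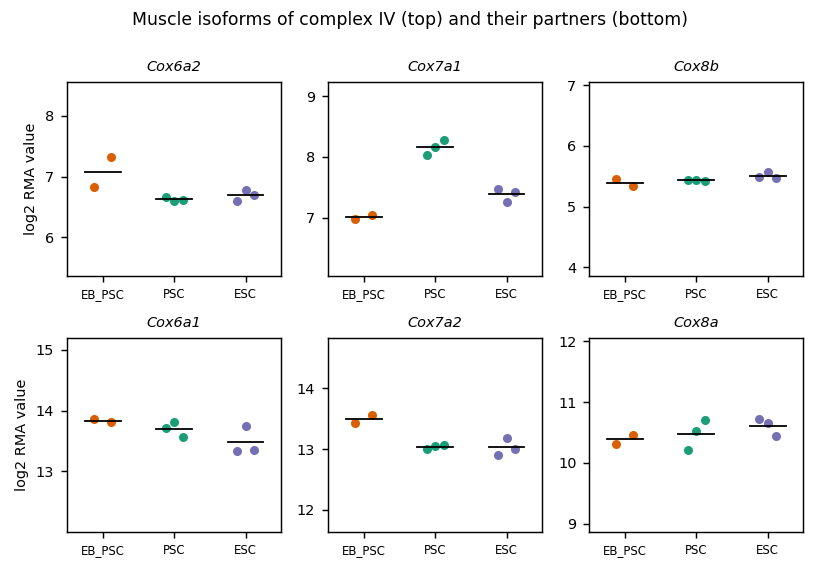
Log2 RMA values of the muscle isoforms Cox6a2, Cox7a1 and Cox8b (top) and of Cox6a1, Cox7a2 and Cox8a (bottom) on each array, with the group mean as a line. Cox7a1 is lower on both EB_PSC arrays (6.98 and 7.04) than on any PSC or ESC array, Cox6a2 is higher mainly on 1 EB_PSC array (7.31), and Cox8b stays near 5.45 throughout.

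In complex V, 4 of 17 subunits rose and 4 fell (23.5% each), near the 18.8% and 25.2% of all genes. With cyclic loess 8 were higher and 4 lower. All 4 that fell belong to the soluble F1 part, which carries the ATP-forming sites. Atp5a1, the alpha subunit, had 12.17 and 12.07 in EB_PSC, against 12.98, 13.25 and 13.15 in PSC. It fell by 1.00 ± 0.13 (limma adjusted p = 2.86e-05), and by 0.53 when its probe sets were averaged. Atp5b, the catalytic beta subunit, had 12.48 and 12.43 in EB_PSC, against 13.01, 13.15 and 13.27 in PSC, a fall of 0.69 ± 0.13 (limma adjusted p = 0.000799). Of the rotor subunits of F1, Atp5c1 and Atp5d fell as well. Atp5c1, the gamma subunit, had 12.40 and 12.22 in EB_PSC, against 12.91 to 13.13 in PSC, and fell by 0.74 ± 0.15 (limma adjusted p = 0.00116). Atp5d, the delta subunit, had 11.73 and 11.79 in EB_PSC, against 12.38 to 12.71 in PSC, and fell by 0.78 ± 0.16 (limma adjusted p = 0.00139), or by 0.50 as an average of probe sets. The fifth F1 subunit, Atp5e, differed by 0.26 ± 0.13 and was not called. The values of Atp5c1, Atp5d and Atp5e rest on probe sets marked for possible cross-hybridisation. The other probe set of Atp5d, marked as well, gave -0.22.

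The subunits of complex V that rose lie in the membrane. Atp5md, a small subunit linked to the dimer of the enzyme, had 11.36 and 11.47 in EB_PSC, against 10.29, 10.13 and 10.14 in PSC. It rose by 1.23 ± 0.14 (limma adjusted p = 6.88e-06). Atp5mpl, a small proteolipid of the membrane part, had 12.50 and 12.53 in EB_PSC, against 11.63, 11.55 and 11.90 in PSC, and rose by 0.82 ± 0.17 (limma adjusted p = 0.00139). Atp5l, the g subunit at the dimer interface, rose by 0.53 ± 0.14 (limma adjusted p = 0.00623). The c subunit of the proton-driven ring is encoded by 3 genes that give the same mature protein. Of these, Atp5g3 had 13.22 and 13.27 in EB_PSC, against 12.70 to 12.89 in PSC, and rose by 0.41 ± 0.12 (limma adjusted p = 0.0138), a call lost without the second EB_PSC array or the first PSC array. Atp5g2 and Atp5g1 differed by 0.29 ± 0.16 and 0.09 ± 0.15 and were not called. For Atp5g2, averaging the probe sets, including a dim one, gave -0.20. As counts made after values were seen, 4 of 5 F1 subunits fell and none rose (median difference -0.74), 1 of 3 ring genes rose, and 3 of 9 other membrane and stalk subunits rose and none fell (median 0.29). Under the alternatives tried the F1 median stayed between -0.80 and -0.53, and that of the other membrane and stalk subunits between 0.24 and 0.42. Atp5d and Atp5e, which have only marked probe sets, were missing from the alternative without such probe sets. The smallest difference of the complex was that of Atp5k, at 0.00 ± 0.12.

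Of the subunits whose symbols the rule does not match, 1 of 7 rose and 3 fell in EB_PSC (14.3% and 42.9%). Beside this and the lists below, 18.8% of all genes were higher and 25.2% lower. Cox4i1, the widely expressed form of complex IV subunit 4, fell by 0.59 ± 0.13 (limma adjusted p = 0.00235), whereas its hypoxia-induced form Cox4i2 was dim in all groups and not called. Cyc1, cytochrome c1 of complex III, fell by 0.97 ± 0.13 (limma adjusted p = 4.89e-05). Cycs, the mobile cytochrome c, rose by 0.49 ± 0.14 (limma adjusted p = 0.0111), a call lost without the first EB_PSC array. Of 12 citric acid cycle enzymes, 1 rose and 5 fell (8.33% and 41.7%), beside 19.9% and 38.5% of genes with a mean above 10. The largest fall was that of Idh3g, a regulatory subunit of isocitrate dehydrogenase (-0.96 ± 0.14, limma adjusted p = 9.19e-05). Of 43 assembly factors, which build the complexes but are not part of them, 12 rose and 16 fell (27.9% and 37.2%). Among them, the complex I factors Ecsit and Ndufaf7 fell by 1.30 ± 0.15 and 1.06 ± 0.13, and Foxred1 fell by 1.02 ± 0.19 (limma adjusted p = 8.51e-06, 1.62e-05 and 0.000517). Of 10 carriers, channels and kinases, 1 rose and 3 fell (10% and 30%). The adenine nucleotide carrier of heart and muscle, Slc25a4, rose by 0.98 ± 0.17 (limma adjusted p = 0.000341), and the form of dividing cells, Slc25a5, fell by 0.46 ± 0.12 (limma adjusted p = 0.00524). Slc25a31, known as the testis form, fell between dim values.

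Of 15 regulators of mitochondrial genes, none rose and 6 fell (40%), beside 18.8% higher and 25.2% lower of all genes. Pprc1, a coactivator of the PGC-1 family tied to cell growth, fell by 1.62 ± 0.20 (limma adjusted p = 1.78e-05). Polrmt, the mitochondrial RNA polymerase, fell by 1.24 ± 0.16 (limma adjusted p = 2.88e-05). Nrf1, whose motif stands in the windows of Ndufa5 and Sdha, fell by 1.13 ± 0.18 (limma adjusted p = 0.000171). Ppargc1a, the PGC-1 coactivator best known from muscle and brown fat, was dim in every group and its difference of 0.13 ± 0.13 was not called. With windows counted by call, the NRF1 motif stood in 2 of 14 members that rose, 2 of 14 that fell and 7 of 37 that were not called. The GABP motif stood in 3 of 14, 0 of 14 and 9 of 37. The marker lists of pluripotent cells, cardiomyocytes, fibroblasts, endoderm and erythroid cells described above moved between the same arrays, and their part in the differences of the subunits was not tested.

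PSC and ESC, both undifferentiated, differed in fewer subunits. Of 77 members, 7 were higher and 6 lower in PSC, and 64 were not called. These shares of 9.09% and 7.79% stand beside 9.07% and 11.7% of all genes, and the median difference was 0.00, against 0.01 for all genes. With cyclic loess, 11 members were higher and 6 lower. Without the first PSC array, 3 were called lower. Of 10 fibroblast and feeder markers, 7 were lower in PSC than in ESC, with a median list level of 6.20 to 6.33 on PSC arrays, against 7.09 to 7.85 on ESC arrays, and the part of feeder RNA in the differences was not tested. The 5' and 3' control probe sets of Gapdh also differed slightly, by -0.06 to 0.00 on PSC arrays, against 0.08 to 0.17 on ESC arrays (3' minus 5', log2). Those of Actb differed by 1.04 to 1.54 on PSC arrays, against 0.69 to 1.13 on ESC arrays, and the part of RNA quality in the differences was not tested.

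**Figure D4:**
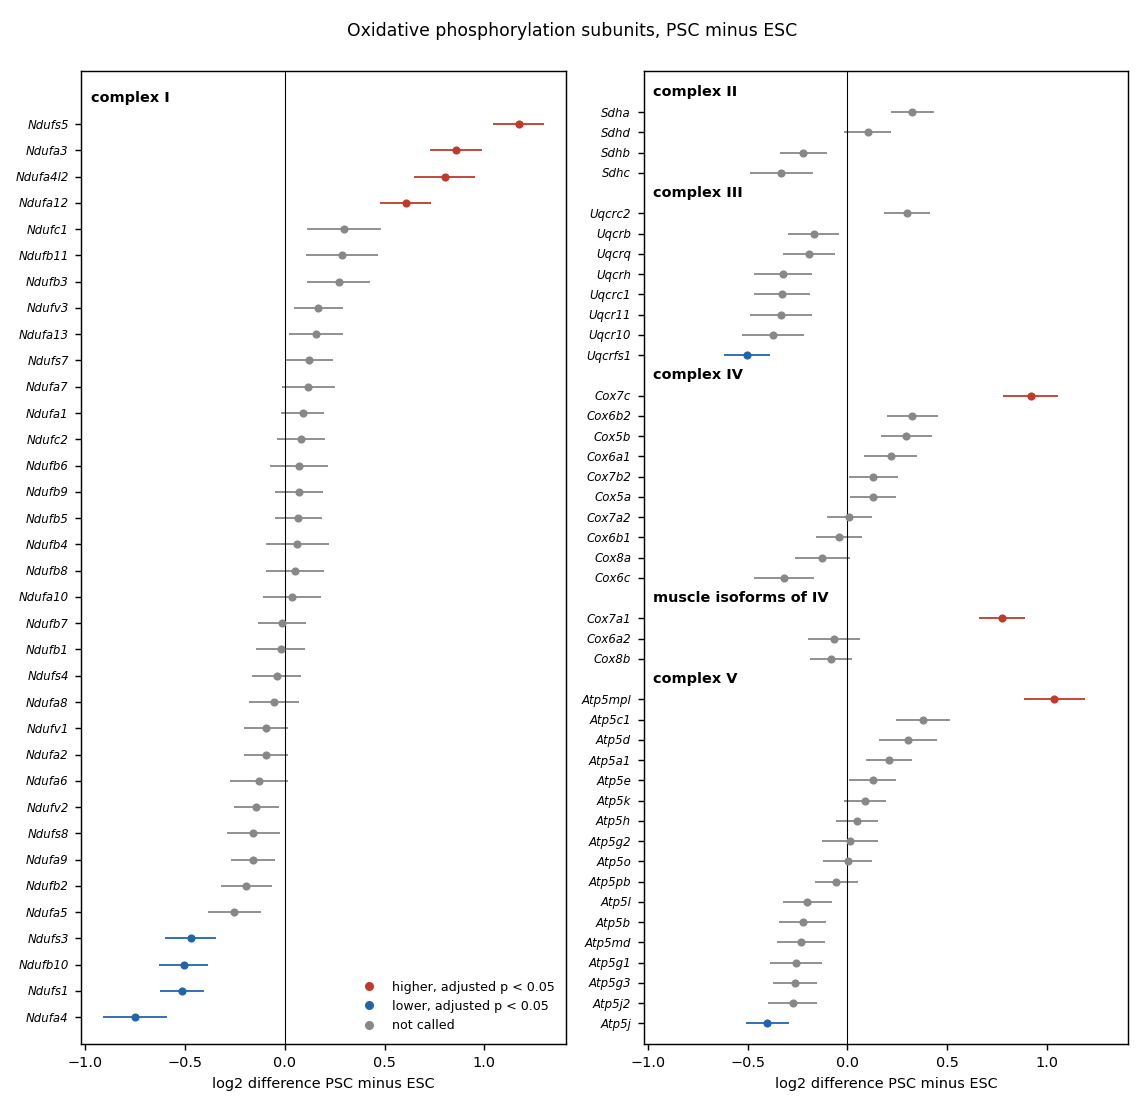
Each point is the log2 difference PSC minus ESC of 1 subunit with its standard error from limma, with complex I on the left and the other complexes on the right, and colours mark calls at adjusted p under 0.05. Most subunits are not called, and the 7 that are higher and 6 that are lower include 8 of complex I.

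The subunit with the largest difference between PSC and ESC was Ndufs5, an accessory subunit of complex I. It had 10.30, 10.48 and 10.56 in PSC, against 9.28, 9.47 and 9.07 in ESC, and was higher by 1.17 ± 0.13 (limma adjusted p = 3.64e-05), which is 2.25-fold. Ndufa3, another accessory subunit, had 11.32, 11.48 and 11.76 in PSC, against 10.78, 10.56 and 10.64 in ESC, and was higher by 0.86 ± 0.13 (limma adjusted p = 0.000505). Ndufa12 was higher by 0.60 ± 0.13 (limma adjusted p = 0.00463), but its probe sets disagreed and their average differed by -0.01. Ndufa4l2 had 8.82, 9.02 and 8.75 in PSC, against 8.29, 7.88 and 8.02 in ESC, a difference of 0.80 ± 0.15 (limma adjusted p = 0.00255). Its relative Ndufa4 was lower, with 8.95, 9.24 and 9.51 in PSC, against 9.89, 10.26 and 9.79 in ESC (-0.75 ± 0.16, limma adjusted p = 0.00454). For Ndufa4 and Ndufa4l2, PSC therefore stood on one side and ESC lay between PSC and EB_PSC. The core subunits Ndufs1 and Ndufs3 were lower by -0.51 ± 0.11 and -0.47 ± 0.13 (limma adjusted p = 0.00481 and 0.0167), and so was the accessory Ndufb10, by -0.51 ± 0.12 (limma adjusted p = 0.00957). The calls of Ndufs3 and Ndufb10 were lost without the first PSC array, and that of Ndufs3 also without the third PSC or the first ESC array. Neither X-linked member was called, beside 69 higher and 55 lower of 618 X-linked genes.

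Outside complex I, Atp5mpl had 11.63, 11.55 and 11.90 in PSC, against 10.46, 11.01 and 10.50 in ESC. It was higher by 1.04 ± 0.15 (limma adjusted p = 0.000368). Atp5mpl lies on chromosome 12, where 25.8% of 624 genes were higher in PSC, and the part of that in its difference was not tested. Cox7c, a small complex IV subunit, had 7.99, 7.93 and 8.11 in PSC, against 6.87, 7.39 and 7.02 in ESC, and was higher by 0.92 ± 0.14 (limma adjusted p = 0.000389), or by 0.47 on its probe set without a mark for cross-hybridisation. Cox7a1, with values given above, was higher by 0.77 ± 0.12 (limma adjusted p = 0.000409), whereas Cox6a2 and Cox8b were not called (-0.07 ± 0.13 and -0.08 ± 0.11). Uqcrfs1 had 10.64, 10.86 and 10.80 in PSC, against 11.35, 11.12 and 11.33 in ESC, and was lower by -0.50 ± 0.12 (limma adjusted p = 0.00803). Atp5j, a peripheral stalk subunit, was lower by -0.40 ± 0.11 (limma adjusted p = 0.0178), a call lost without the first or second PSC array or the first ESC array. In complex II no subunit was called, and Sdha, with 0.33 ± 0.11, lay just outside the threshold (limma adjusted p = 0.0508) and inside it with cyclic loess (0.42). Cox5b differed by 0.30 ± 0.13 and was not called, and its brightest probe set without a mark for cross-hybridisation gave -0.49. Within complexes I to V in turn, the smallest differences were those of Ndufb7 (-0.02), Sdhd (0.10), Uqcrb (-0.17), Cox7a2 (0.01) and Atp5o (0.00), though averaging all probe sets gave -0.43 for Atp5o.

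EB_PSC against ESC uses the same EB_PSC arrays and the same ESC arrays as the comparisons above, so its calls are not independent of them. Of 77 members, 23 were higher in EB_PSC (29.9%) and 19 lower (24.7%), beside 19.3% and 25.6% of all genes. Among members with a mean above 10 the shares were 27.7% and 23.1%, beside 19.2% and 43.0% of all such genes. With cyclic loess the split of the 77 members was 38 higher and 11 lower, and for all genes 4435 and 3626 in place of 3513 and 4652. Without the second EB_PSC array 14 members were higher, and without the third ESC array 15. Atp5mpl differed by 1.86 in EB_PSC minus ESC, 0.82 in EB_PSC minus PSC and 1.04 in PSC minus ESC. Ndufs5 differed by 1.49, 0.32 and 1.17 in the same 3 comparisons. Uqcrc1 differed by -1.76, -1.43 and -0.33. Cox6b2 differed by -1.71, -2.03 and 0.32, and Ndufa4l2 by -1.70, -2.50 and 0.80. Ndufb1, Uqcrh and Cox7c were higher in EB_PSC than in ESC by 1.36, 0.80 and 0.82, and the difference of Cox7c was 0.43 and not called without probe sets marked for cross-hybridisation. Of the 6 core subunits of complex I, 5 were lower in EB_PSC than in ESC and none higher, with a median difference of -0.63. With cyclic loess 3 were lower and the median was -0.38. Cox7a1 was lower in EB_PSC than in ESC by 0.37 (limma adjusted p = 0.0322), and with cyclic loess the difference was -0.16 and not called. The call was also lost without either EB_PSC array, without the first or the third ESC array, with the compared groups fitted alone and with the replicate number as a block. The 3' minus 5' difference of the Gapdh control probe sets was -0.09 to -0.06 on EB_PSC arrays, against 0.08 to 0.17 on ESC arrays, and that of Actb was 1.09 to 1.17 on EB_PSC arrays, against 0.69 to 1.13 on ESC arrays. Their part in the differences was not tested.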

How the data were processed

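Total RNA of 8 samples was hybridised to 1-colour Affymetrix arrays. The authors deposited log2 values computed by RMA (Bioconductor), per the labels and the submitters' processing notes. Software versions, the chip definition and any joint normalization of the arrays were not given in the sources used here. RMA equalises array distributions, so a shift of most transcripts would not be visible. Groups come from the sample titles.

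The table holds 45101 probe sets, of which 34958 name 1 gene in the platform annotation, 932 several and 9211 none. Chromosomes and promoters come from RefSeq GRCm38.p6. The members and the gene lists were chosen with earlier results of these data known. Named genes are, per complex and comparison, up to 4 called rises and 4 called falls without overlap between arrays, the smallest difference, and a fixed set of subunits and isoforms. From each pathway list they are up to 3 called genes with the largest difference, and Cox6a2, Cox7a1 and Cox8b have their 5 most similar genes. Other genes named with values were chosen after their values were seen.

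The test was limma's (version 3.58.1, R 4.3.3), in 1 fit of all 8 arrays with group as the only term (5 residual and 8.07 prior degrees of freedom). Tests are two-sided, p-values are adjusted by Benjamini-Hochberg over all 18194 genes, and a gene is called at an adjusted p under 0.05. Tables and figures used Python 3.11.15, pandas 2.3.3, SciPy 1.17.1 and Matplotlib 3.10.9. The fit was first tested on simulated data. Alternatives changed the normalization (quantile again, or cyclic loess), the probe sets (dim ones removed, all of a gene averaged, or those ending in _s_at or _x_at removed) and the fit (only the 2 groups compared, a robust trended prior, weighted arrays, a replicate block, or 1 array left out at a time).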

Additional observations from a re-analysis of the deposited data

How the results depend on the processing

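For EB_PSC against PSC the member counts ranged from 12 to 27 higher and from 14 to 17 lower over all alternatives, and of 47 named genes 38 kept direction and call in every one. For PSC against ESC, 29 of 40 did. There, 11 members were higher with repeated quantile normalization and 11 with cyclic loess, and 12 with array weights. There, 10 were lower with the mean of probe sets, and 10 without _x_at and _s_at probe sets. For EB_PSC against ESC, 26 of 48 kept both, and cyclic loess gave 38 higher and 11 lower. The causes of these shifts were not tested. Some differences turned round. In PSC against ESC, Ndufa12 was -0.0127 and Atp5o -0.43 with the mean of probe sets, and Cox5b -0.49 without _x_at and _s_at probe sets. In EB_PSC against ESC, Uqcr10 was 0.45 and Atp5j2 0.0134 with the mean, and Atp5j2 0.0728 without those probe sets. Of the 77 members, 16 rest on probe sets with those marks, and probe sets of a gene opposed each other beyond 0.2 in 2 genes for EB_PSC against PSC and in 7 for PSC against ESC, of 42 genes with several.

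Leaving out single arrays gave 12 to 17 members higher and 15 to 17 lower for EB_PSC against PSC, 7 to 10 higher and 3 to 7 lower for PSC against ESC, and 14 to 27 higher and 14 to 20 lower for EB_PSC against ESC. The change of Cox6a2 minus Cox6a1 ran from 0.05 to 0.58, that of Cox7a1 minus Cox7a2 from -1.64 to -1.54, and that of Cox8b minus Cox8a from -0.083 to 0.19, with -0.00299 under cyclic loess. A lone EB_PSC array was assumed to vary like the other groups. Deviations of same-numbered arrays correlated between -0.25 and 0.22, and those of other-numbered arrays between -0.22 and 0.21. With deviations taken from means of 2 or 3 arrays, this check cannot show whether the numbers pair the samples. With the replicate number as a block, 18 members were higher and 16 lower for EB_PSC against PSC, 7 and 6 for PSC against ESC, and 18 and 15 for EB_PSC against ESC. The number of arrays, 2 for EB_PSC, limits the precision, and dim probe sets such as those of Cox8b, Cox7b2 and Ndufb4 limit what can be seen of these genes.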
